A study of Mus musculus with 2 samples.

Results

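The genes described here are 39 interferon-induced genes, followed across the cell types of mouse epididymal white adipose tissue (WAT). They form a list of symbols, and 37 of the 39 have a row among the 32285 genes counted, while the antiviral GTPase genes Mx1 and Mx2 have none. Of the rest, 7 Ifit and Oas genes stand for targets of type I interferon and 8 genes (Gbp2, Gbp3, Gbp4, Gbp5, Gbp7, Irgm1, Irgm2 and Irf1) for targets of interferon gamma, and 22 others complete the list. Nuclei were profiled by single nucleus RNA sequencing in 2 libraries. HF-PBS came from male mice that were put on a high-fat diet (HF) from 8 weeks of age, injected with PBS 3 times a week after 6 weeks of HF, and kept on HF for 8 more weeks. HF-HHT came from mice treated alike but injected with homoharringtonine (HHT), a plant alkaloid that blocks protein synthesis. The study used C57BL/6 N and p16-Luc mice in this diet experiment, but the sources used here do not say which of them gave the fat. Each library holds the pooled epididymal fat of 3 mice, so the mice within a pool cannot be told apart, no p-value across conditions exists, and treatment and library cannot be told apart. After filtering, 6655 nuclei of HF-PBS and 6447 of HF-HHT remained, with median depths of 4310 and 3968 UMIs.

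Interferons are cytokines that cells use to announce infection and immune activation. Type I interferons signal through IFNAR to a complex with STAT2 and IRF9, which binds the interferon-stimulated response element (ISRE), whereas interferon gamma, made mainly by T and natural killer (NK) cells, signals through IFNGR to genes that carry the gamma-activated site (GAS). The target sets overlap. IFIT and OAS proteins act on viral RNA and are classical type I products, while guanylate-binding proteins (GBPs) and immunity-related GTPases (IRGs), which attack membranes around microbes, and the transcription factor IRF1 respond strongly to interferon gamma. In obese WAT, interferon gamma is known as a product of infiltrating lymphocytes that acts on macrophages and adipocytes.

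Promoter sequences are shown because they carry the elements through which both pathways act. RefSeq windows of 250 bases before the transcription start (GRCm38.p6) were at hand for 30 of the 39 genes, not for Oas2, Mx1, Mx2, Gbp4, Iigp1, Usp18, Dhx58, Parp9 and Parp14. They were searched for the ISRE core, a pair of GAAA half-sites 2 bases apart, on both strands and for the GAS core TTCNNNGAA, which reads the same on both. Matches of the same motif or of both may overlap. At least 1 ISRE core was found in 15 of the 30 genes, against 3.46% of the 27025 genes with a window, and a GAS core in 8 of the 30, against 8.13%. Among the interferon gamma members, 6 of 7 held an ISRE core and 4 of 7 a GAS core. For the type I members these counts were 4 of 6 and 2 of 6. The 6 windows below, printed 5′ to 3′ on the strand of the gene with the matches in capitals, belong to 4 interferon gamma members with large differences between the libraries and to 2 type I members. Gbp2 and Irgm2 show an ISRE core near the end of the window, Gbp5 and Irgm2 also hold GAS cores, Irf1 has a GAS core alone, Ifit1 has 2 ISRE cores, and Oasl2 has neither. A match is a description of the letters, not a binding site.
Gbp2 (chr3:142620413-142620662, + strand): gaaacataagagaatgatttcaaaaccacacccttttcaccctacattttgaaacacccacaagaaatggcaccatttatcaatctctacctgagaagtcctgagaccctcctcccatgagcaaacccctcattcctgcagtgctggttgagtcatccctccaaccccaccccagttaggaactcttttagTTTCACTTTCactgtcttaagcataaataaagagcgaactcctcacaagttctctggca
Gbp5 (chr3:142496684-142496933, + strand): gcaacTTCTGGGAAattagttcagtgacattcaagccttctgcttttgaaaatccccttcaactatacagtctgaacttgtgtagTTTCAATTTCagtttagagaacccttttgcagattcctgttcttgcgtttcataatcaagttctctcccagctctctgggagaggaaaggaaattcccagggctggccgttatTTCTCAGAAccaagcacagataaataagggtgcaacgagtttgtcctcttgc
Irgm2 (chr11:58214727-58214976, + strand): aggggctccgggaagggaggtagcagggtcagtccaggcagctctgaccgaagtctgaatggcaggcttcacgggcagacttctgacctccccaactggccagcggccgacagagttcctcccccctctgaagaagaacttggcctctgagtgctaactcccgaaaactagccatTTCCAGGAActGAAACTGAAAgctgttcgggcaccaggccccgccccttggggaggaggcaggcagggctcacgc
Irf1 (chr11:53769764-53770013, + strand): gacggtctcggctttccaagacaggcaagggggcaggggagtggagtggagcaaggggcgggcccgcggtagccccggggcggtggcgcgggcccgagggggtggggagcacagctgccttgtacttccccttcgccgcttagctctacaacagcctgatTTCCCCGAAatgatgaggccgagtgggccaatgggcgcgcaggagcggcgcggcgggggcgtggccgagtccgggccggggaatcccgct
Ifit1 (chr19:34640639-34640888, + strand): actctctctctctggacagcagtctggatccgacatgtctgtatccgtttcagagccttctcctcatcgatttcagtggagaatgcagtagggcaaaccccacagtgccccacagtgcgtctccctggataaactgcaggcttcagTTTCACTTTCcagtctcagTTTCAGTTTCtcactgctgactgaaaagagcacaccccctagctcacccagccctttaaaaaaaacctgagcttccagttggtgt
Oasl2 (chr5:114896684-114896933, + strand): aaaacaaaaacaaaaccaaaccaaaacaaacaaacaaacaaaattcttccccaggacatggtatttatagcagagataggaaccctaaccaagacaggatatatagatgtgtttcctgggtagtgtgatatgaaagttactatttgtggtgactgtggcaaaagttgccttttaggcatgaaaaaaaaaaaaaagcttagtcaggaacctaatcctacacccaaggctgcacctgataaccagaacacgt

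The main classes of nuclei, named from marker genes, were macrophages (3580 nuclei in HF-PBS, 2221 in HF-HHT), adipocytes (151 and 848), adipocyte precursor cells (APCs, 749 and 671), T and NK cells (665 and 541), endothelial cells (100 and 404), mesothelial cells (160 and 319), dividing cells (279 and 221), B cells (741 and 48), and monocytes and dendritic cells (150 and 106). Levels are given in CPM, the UMIs of a gene per 1000000 UMIs of the class in that library, and ratios are HF-HHT over HF-PBS. Intervals are exact 95% intervals that cover counting error only and not the spread between nuclei or between mice. A member counts as measured in a class with at least 20 UMIs over both libraries.

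The summed interferon gamma members were higher in HF-HHT in every class compared, and in 7 of the 9 classes their ratio exceeded that of the type I members beyond counting error. In macrophages the 8 interferon gamma members summed to 84.1 CPM in HF-PBS against 921 CPM in HF-HHT, a 10.9-fold ratio, while the 7 type I members summed to 88.7 and 199 CPM, a 2.24-fold ratio. In adipocytes the sums were 59.8 and 423 CPM for interferon gamma members and 17.9 and 47.0 CPM for type I members. APCs gave 97.4 and 494 CPM against 70.1 and 166 CPM. On the log2 scale, the type I ratio was below the interferon gamma ratio by 2.29 in macrophages (interval of the difference -2.41 to -2.17), by 1.43 in adipocytes (-2.0 to -0.82) and by 1.09 in APCs (-1.35 to -0.84). These differences do not depend on how the libraries are scaled, and none of the 3 intervals reaches 0, but their size depends on other choices. As a difference of the medians over members, macrophages gave -1.34. Upper limits on UMIs and genes left 151 adipocyte nuclei in HF-PBS and 848 in HF-HHT, against 299 and 1180 without these limits, where the adipocyte difference was -2.07.

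**Figure D1:**
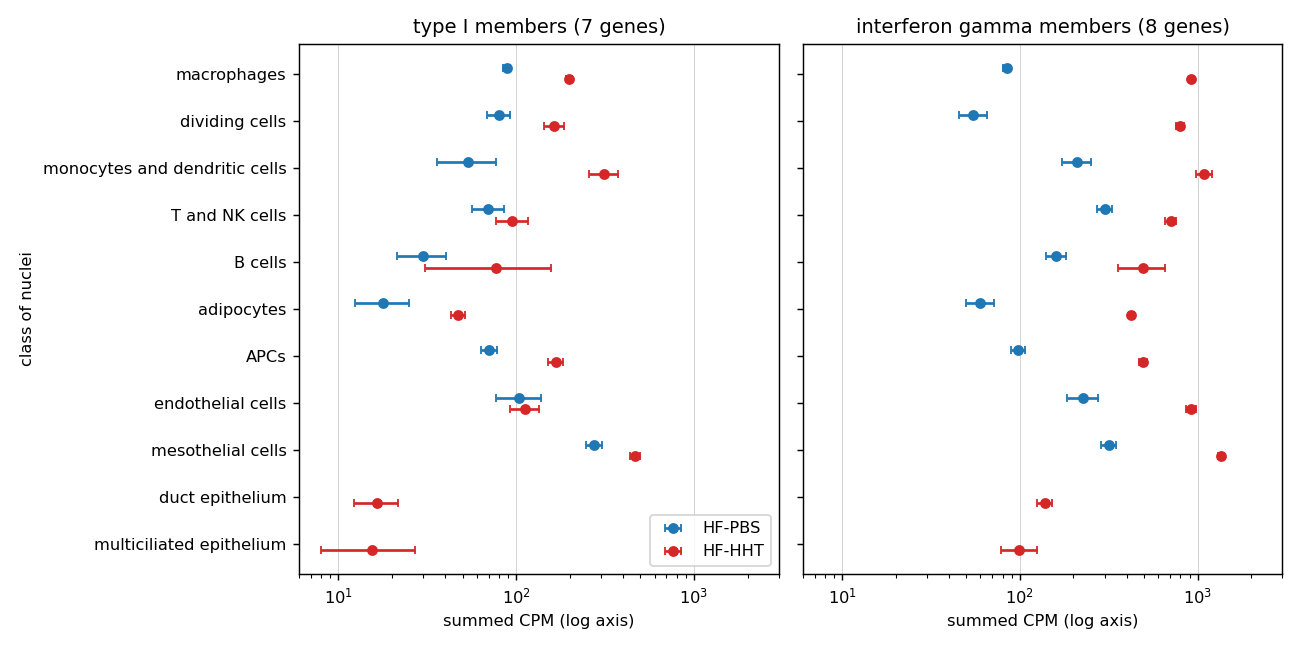
Summed CPM of the 7 type I members (left) and the 8 interferon gamma members (right) on log axes, by class of nuclei. Points are libraries (HF-PBS blue, HF-HHT red) and bars are exact 95% Poisson intervals of the UMIs. The interferon gamma sum of macrophages moves from 84.1 to 921 CPM and their type I sum from 88.7 to 199 CPM. Both epithelia occurred in HF-HHT only.

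The classes also differed in their levels before any comparison. In HF-PBS, mesothelial cells, the lining of the fat pad, had the highest type I sum (275 CPM), well above that of endothelial cells (104 CPM), whose interval overlapped that of macrophages (88.7 CPM). Adipocytes had the lowest type I sum (17.9 CPM). The interferon gamma sum in HF-PBS was highest in mesothelial cells (316 CPM) and T and NK cells (301 CPM), which did not differ beyond their intervals, and lowest in adipocytes (59.8 CPM) and dividing cells (54.5 CPM), whose intervals also overlapped. In HF-HHT, mesothelial cells again came first (1355 CPM), followed by monocytes and dendritic cells (1085 CPM), macrophages (921 CPM) and endothelial cells (920 CPM). Macrophages thus stood below T and NK cells in HF-PBS and above them in HF-HHT, where T and NK cells stood at 704 CPM.

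Counted by gene, 35 of the 37 measured members were at least 1.5-fold higher in HF-HHT in macrophages, where 26.1% of all 14363 measured genes were, and none was at least 1.5-fold lower, against 8.26% of all genes. Adipocytes had 31 of 35 measured members higher, with a background of 35.8% of 12582 genes, and APCs had 31 of 34, with a background of 23.1% of 12169 genes. No member was 1.5-fold lower in either class, where 12.2% and 7.86% of all genes were. The members were chosen with earlier results of these data known, so the distance from the background is a description and not independent support. The median log2 ratio over members was 1.63 in macrophages, 1.87 in adipocytes and 1.41 in APCs, and over all measured genes it was 0.16, 0.31 and 0.17. TMM factors lowered every log2 ratio by 0.20 in these 3 classes, and median-of-ratios factors by 0.21 in macrophages and 0.23 in adipocytes and APCs, which is far less than the median of the members.

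**Figure D2:**
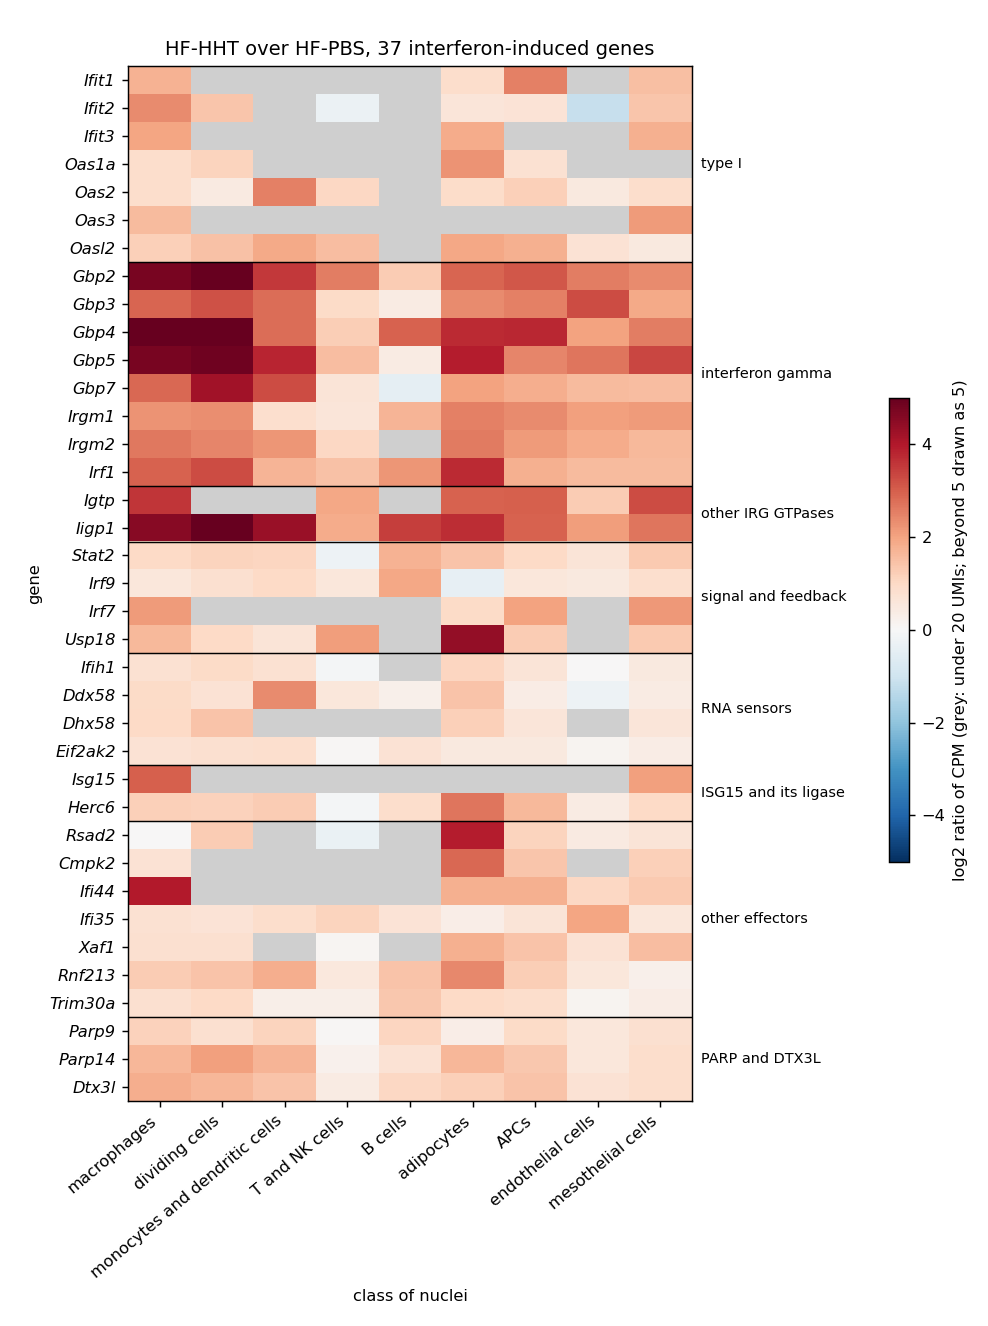
Heat map of the log2 ratio of CPM, HF-HHT over HF-PBS, for the 37 members (rows, grouped by role) in 9 classes of nuclei (columns). Red is higher in HF-HHT, blue lower, grey under 20 UMIs, and the colour stops at 5. The band of Gbp, Irgm, Irf1, Igtp and Iigp1 rows is the reddest in most columns, and T and NK cells are among the palest columns.

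Among the interferon gamma members of macrophages, Gbp2, Gbp4 and Gbp5 differed most. Gbp2 was counted at 6.59 CPM in HF-PBS (141 UMIs) against 176 CPM in HF-HHT (1879 UMIs), a log2 ratio of 4.74 (4.49 to 4.99). Gbp5, which also promotes inflammasome assembly, went from 6.91 to 184 CPM, with the same log2 ratio of 4.74. Gbp4 gave the largest ratio of all members in this class, from 2.29 CPM (49 UMIs) to 91.2 CPM (976 UMIs), 39.9-fold. The libraries were thus far apart for these 3 genes, with no overlap of the counting intervals. Gbp3 (5.51 and 41.0 CPM) and Gbp7 (15.0 and 109 CPM) differed 7.44-fold and 7.23-fold. Of the IRGs in this set, Irgm1 stood at 11.9 and 56.7 CPM and Irgm2 at 9.02 and 55.3 CPM. Irf1, the transcription factor that sustains the program, was counted at 26.9 and 208 CPM, a log2 ratio of 2.95 (2.82 to 3.09).

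The IRGs outside the interferon gamma set behaved like its members. Iigp1, an effector that breaks vacuoles of intracellular parasites, had 20.2 CPM in HF-PBS (432 UMIs) against 475 CPM in HF-HHT (5078 UMIs) in macrophages, 23.5-fold. Igtp was counted at 1.49 and 17.8 CPM. By their GENCODE positions, Igtp (GRCm38 chr11:58199556-58207591) and Irgm2 (chr11:58199618-58222782) overlap on the plus strand, so reads in the shared part cannot be assigned with certainty. The same caution holds for close copies such as Gbp2 with Gbp2b, Oas1a with Oas1g and Ifit3 with Ifit3b. The RefSeq promoter windows of Irgm2 and Gbp5 lie inside the GENCODE intervals of these genes, and that of Irgm2 lies past the end of Igtp.

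The type I members of macrophages differed less, and unevenly. Ifit2 led with 4.39 and 22.9 CPM, a log2 ratio of 2.38 (2.03 to 2.74). Ifit3 stood at 0.841 and 3.27 CPM, and Ifit1 at 1.92 and 6.45 CPM. The oligoadenylate synthetases, which make the messenger that activates RNase L, were closer together: Oas2 was counted at 39.1 and 70.9 CPM, Oas1a at 8.18 and 14.9 CPM, and Oas3 at 3.27 and 9.81 CPM. Oasl2, a relative of these genes, had 31.0 and 70.3 CPM. All 7 were above 1.5-fold, and the largest, 5.21-fold for Ifit2, lay below 7 of the 8 interferon gamma ratios.

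The remaining members covered both ends of the range in macrophages. Ifi44 differed 15.5-fold, from 0.701 CPM (15 UMIs) to 10.8 CPM (116 UMIs), and Isg15, the ubiquitin-like modifier, 7.83-fold, from 1.07 to 8.41 CPM. Herc6, the mouse ligase for ISG15, gave 82.2 and 186 CPM. Of the signalling genes, Irf7, the amplifier of type I interferon production, went from 2.90 to 12.8 CPM and Usp18, the ISG15 protease that dampens IFNAR, from 4.86 to 15.0 CPM. The STAT2 and IRF9 genes of the type I complex differed less, with log2 ratios of 1.0 (0.88 to 1.12) and 0.57 (0.33 to 0.81), and Irf9 missed the 1.5-fold size. The RNA sensors Ddx58 (RIG-I), Ifih1 (MDA5) and Dhx58 (LGP2) and the kinase gene Eif2ak2 (PKR) lay between 1.64-fold and 2.0-fold. Parp14 and Dtx3l, which act in ADP-ribosylation and ubiquitination, differed 3.14-fold and 3.53-fold. Rsad2 (viperin), a radical SAM enzyme that makes a chain-terminating nucleotide, had 26.6 CPM (569 UMIs) and 26.9 CPM (288 UMIs), a log2 ratio of 0.02 (-0.19 to 0.23). It was the only measured member besides Irf9 that was not 1.5-fold higher in macrophages.

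Macrophages were split further by markers at a finer clustering, after the class values had been seen, because the states made up different parts of the libraries: lipid-associated (1858 nuclei in HF-PBS, 684 in HF-HHT), monocyte-like (365 and 831), resident (131 and 133) and other macrophages (1176 and 555). The interferon gamma sum was higher in HF-HHT inside each state. It was 47.9 and 292 CPM in lipid-associated macrophages, 196 and 1598 CPM in monocyte-like, 93.7 and 628 CPM in resident and 118 and 843 CPM in other macrophages, with log2 ratios of 2.61, 3.03, 2.75 and 2.84. Each of these ratios lay below the 3.45 of all macrophages pooled. In both libraries the monocyte-like state, which took a larger part of the HF-HHT macrophages, had the highest interferon gamma sum. All 8 interferon gamma members were at least 1.5-fold higher in all 4 states, where 19.8%, 22.4%, 26% and 21.9% of all measured genes were. No member was 1.5-fold lower in any state, against 6.32%, 12%, 11.6% and 7.48% of all genes.

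Within states, the type I members differed less than in the pool or about as much. Their sums were 68.3 and 122 CPM in lipid-associated, 101 and 229 CPM in monocyte-like, 147 and 260 CPM in resident and 125 and 252 CPM in other macrophages. Log2 differences between the type I and the interferon gamma ratio lay between -1.92 and -1.78, and no interval reached 0. Rsad2 differed between states, with 33.2 CPM in HF-PBS against 30.5 CPM in HF-HHT in lipid-associated macrophages, but 5.78 CPM (10 UMIs) and 20.4 CPM (81 UMIs) in monocyte-like ones. The flat ratio of the pooled class thus held a log2 ratio of -0.13 (-0.44 to 0.18) and another of 1.82 (0.87 to 2.93).

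**Figure D3:**
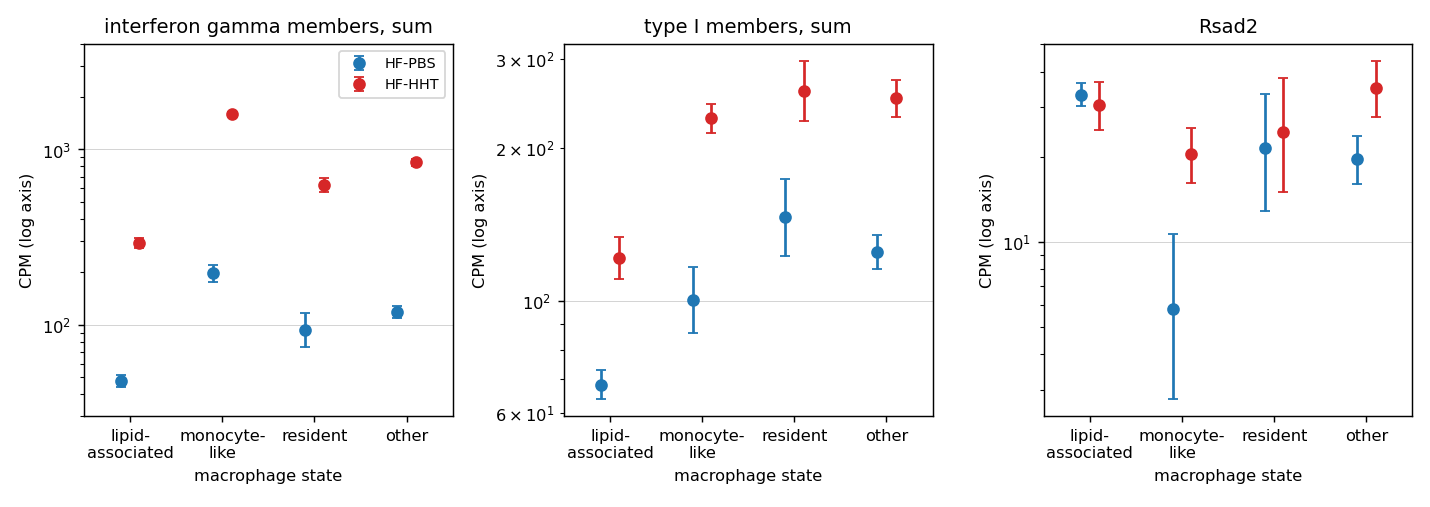
CPM on log axes in 4 macrophage states for the summed interferon gamma members, the summed type I members and Rsad2. HF-PBS is blue, HF-HHT red, and bars are exact 95% Poisson intervals. The interferon gamma sums of HF-HHT lie above those of HF-PBS in each state, and the Rsad2 intervals separate in monocyte-like macrophages (5.78 and 20.4 CPM) and in other macrophages.

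In adipocytes, Gbp5 had the largest difference among the interferon gamma members, from 5.62 CPM (11 UMIs) in HF-PBS to 85.8 CPM (856 UMIs) in HF-HHT, a log2 ratio of 3.93 (3.08 to 4.94). Irf1 was counted at 5.11 CPM (10 UMIs) and 67.2 CPM (670 UMIs), 13.1-fold. Gbp4 had only 2 UMIs in HF-PBS against 135, with a wide interval of 1.85 to 6.79 around the log2 ratio of 3.73. Gbp2 (9.20 and 68.9 CPM), Irgm1 (4.09 and 23.8 CPM) and Irgm2 (9.71 and 58.4 CPM) were 5.81-fold to 7.48-fold higher. Iigp1 was counted at 33.7 CPM (66 UMIs) in HF-PBS, where 1 nucleus held 59.1% of its UMIs, and at 434 CPM (4331 UMIs) in HF-HHT. All 8 interferon gamma members were at least 4.03-fold higher.

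Members linked to type I interferon were also higher in adipocytes, but from few UMIs. Usp18 was read by 1 UMI in HF-PBS against 107 in HF-HHT (0.511 and 10.7 CPM), with a log2 interval of 1.88 to 9.71. Rsad2 had 2 and 156 UMIs (1.02 and 15.6 CPM), a log2 ratio of 3.93 (2.06 to 6.99), in contrast to its flat level in pooled macrophages. Herc6 stood at 11.2 and 71.0 CPM, and Rnf213, a ubiquitin ligase of lipid droplets and bacterial surfaces, at 21.5 and 114 CPM. Ifit3 had no UMI in HF-PBS against 56 in HF-HHT, at least 3.66-fold against a floor of 3 UMIs, and Ifit1 none and 28, at least 1.83-fold. Oasl2 was counted at 3.58 and 13.5 CPM. Irf9 (10.7 and 8.12 CPM), Parp9 (145 and 182 CPM), Ifi35 (26.1 and 33.1 CPM) and Eif2ak2 (29.1 and 40.7 CPM) were the measured members that were not 1.5-fold higher. In the adipocyte class, 12 macrophage markers summed to 1574 CPM in HF-PBS against 183 CPM in HF-HHT, so the nuclei compared were not alike in this respect. The part of macrophage RNA in the member ratios was not tested.

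The adipocyte signal was concentrated in a small part of the nuclei. To compare nuclei at equal depth, each was thinned to 5000 UMIs, which left 140 of 151 adipocyte nuclei in HF-PBS against 753 of 848 in HF-HHT. Nuclei with at least 3 UMIs of the interferon gamma members made up 1.43% (2 nuclei) in HF-PBS against 15.0% (113 nuclei, 12.5% to 17.8%) in HF-HHT. The 113 nuclei held 79.3% of the interferon gamma UMIs of the thinned HF-HHT adipocytes, a share that follows in part from picking nuclei by these UMIs. Picked alike, nuclei of HF-HHT held 90.8% in macrophages, 92.7% in mesothelial cells and 82.8% in APCs. The 113 nuclei also held 88.4% of the adipocyte Iigp1 UMIs, which were not used to pick them. Without thinning, the shares with at least 3 UMIs were 6.62% and 25.2%. The duct epithelium of HF-HHT, an unrelated cell type with a median depth of 3917 UMIs against 11521.5 in HF-HHT adipocytes, had such a share of 5.53% after thinning (12 of 217 nuclei, with 474 shallower nuclei left out). Its share with at least 1 UMI, however, was near that of adipocytes, since 57.6% of its nuclei and 50.2% of the adipocytes had none. A single UMI therefore does not set adipocytes apart from duct epithelium here, and the part of free RNA in it was not tested.

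These adipocyte nuclei also held more of other interferon-induced RNA. In HF-HHT, nuclei with at least 3 interferon gamma UMIs had on average 11.5 Iigp1 UMIs and 0.929 type I UMIs per 5000. Nuclei with none had 0.124 and 0.0635, and the HF-PBS nuclei with none had 0.00877 and 0.0877. The type I level of HF-HHT nuclei without interferon gamma UMIs was thus near that of their HF-PBS counterparts. These nuclei were not alike, however, with on average 7.97 macrophage marker UMIs in HF-PBS against 0.955 in HF-HHT. The part of macrophage RNA in their type I levels was not tested. In HF-HHT, adipocyte markers remained high, at 51.0 UMIs in the nuclei with at least 3 interferon gamma UMIs and 66.1 in those with none. Macrophage markers were low in both of these HF-HHT sets, at 0.770 and 0.955. Whether the 113 nuclei came from 1 mouse or from all 3 cannot be told apart.

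After thinning, macrophages, APCs and mesothelial cells showed broader shifts than adipocytes. At the same depth, nuclei with at least 3 interferon gamma UMIs made up 2.78% and 41.4% of macrophages in HF-PBS and HF-HHT (1819 and 1395 shallower nuclei left out), 4.17% and 30.1% of APCs (293 and 478 left out), and 22.0% and 50.3% of mesothelial cells (42 and 148 left out). Without thinning these shares were 3.72% and 37.8%, 5.07% and 18.8%, and 34.4% and 48.9%. The unthinned APC share of HF-HHT thus lay below the 25.2% of adipocytes. In thinned macrophages, APCs and mesothelial cells of HF-HHT, the nuclei with at least 3 had more type I UMIs than those with none. The averages were 1.42 against 0.475 in macrophages, 1.48 against 0.531 in APCs and 3.23 against 1.21 in mesothelial cells. The same held in HF-PBS, with 1.51 against 0.383 in macrophages, 1.74 against 0.272 in APCs and 2.35 against 1.0 in mesothelial cells. Macrophage states differed in the sums of both sets, and their part in the macrophage averages was not tested.

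**Figure D4:**
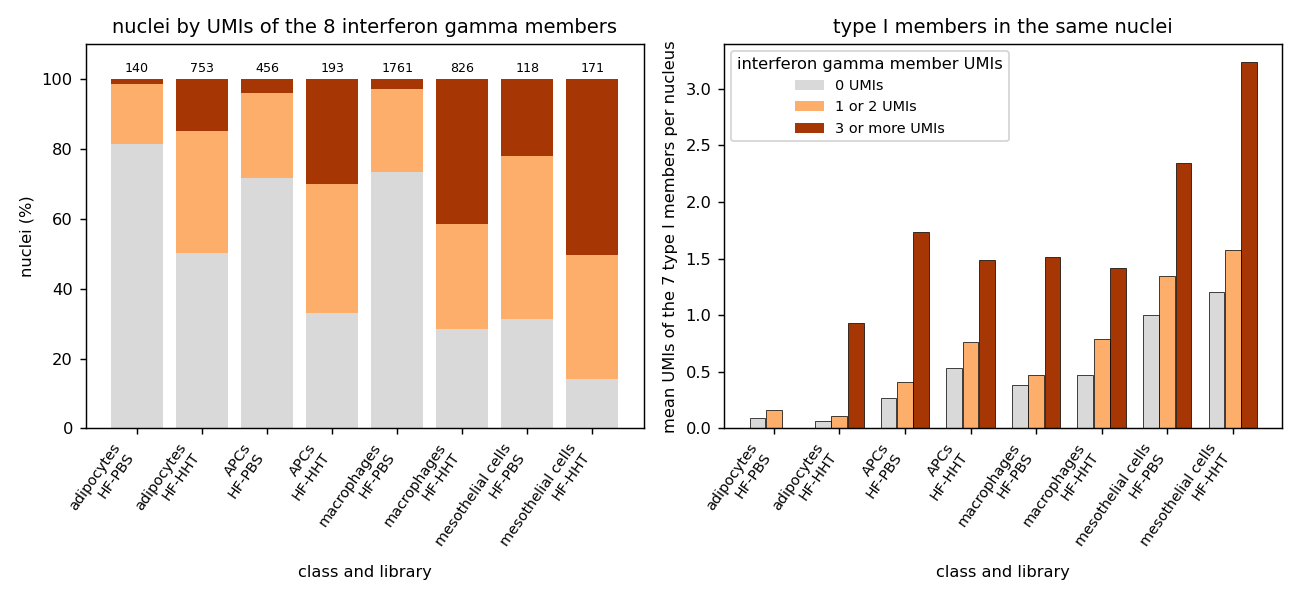
Left, share of nuclei (%) with 0, 1 or 2, and 3 or more UMIs of the 8 interferon gamma members after thinning to 5000 UMIs, by class and library, with the number of nuclei above each bar. Right, mean UMIs of the 7 type I members per nucleus in the same bins. In HF-HHT adipocytes the darkest bin holds 15.0% of nuclei and averages 0.929 type I UMIs.

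APCs, the stromal cells that give rise to adipocytes, also had larger ratios for the interferon gamma members. Gbp4 was counted at 4.94 CPM in HF-PBS (25 UMIs) against 67.9 CPM in HF-HHT (189 UMIs), 13.8-fold, and Gbp2 at 8.89 and 77.3 CPM, 8.69-fold. Iigp1 stood at 64.4 and 500 CPM. Ifit1 differed most of the type I members, with 8 and 25 UMIs and a log2 ratio of 2.51 (1.31 to 3.87), whereas Ifit2 had 31.8 and 50.7 CPM, a log2 ratio of 0.67 (0.34 to 1.01). Oasl2 was counted at 17 and 59.0 CPM. Ddx58, Eif2ak2 and Irf9 stayed under 1.5-fold. The level of the 12 macrophage markers in APCs was 466 CPM in HF-PBS against 306 CPM in HF-HHT. The part of macrophage RNA in the member ratios was not tested.

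Among the main classes, mesothelial cells had the highest interferon gamma sum, though in HF-PBS not beyond the interval of T and NK cells. Their interferon gamma ratio was smaller than that of macrophages, adipocytes and APCs. Of the 36 members measured in mesothelial cells, 29 were at least 1.5-fold higher, against 23.8% of all measured genes. Oasl2 alone had 199 CPM (251 UMIs) in HF-PBS against 279 CPM (544 UMIs) in HF-HHT, more than in any other class compared in either library, with a log2 ratio of 0.49 (0.27 to 0.71). Gbp5 was the interferon gamma member with the largest difference, at 23.8 and 238 CPM, a log2 ratio of 3.32 (2.79 to 3.91). Igtp stood at 7.93 and 77 CPM and Iigp1 at 132 and 846 CPM. Irf7 differed 4.53-fold and Isg15 4.10-fold, from 12 and 6 UMIs in HF-PBS. The difference between the type I and the interferon gamma log2 ratio was -1.34 (-1.58 to -1.10).

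In endothelial cells the interferon gamma members differed while the type I members did not separate. The interferon gamma sum was 226 CPM in HF-PBS against 920 CPM in HF-HHT, a log2 ratio of 2.03 (1.73 to 2.33), and the type I sum 104 and 112 CPM, 0.10 (-0.40 to 0.63). Of 28 measured members, 16 were at least 1.5-fold higher (background 23.1%) and 1 was lower (background 10.1%). That gene was Ifit2, named here after its value was seen, with 13 UMIs in each library (28.8 and 13 CPM) and a log2 interval from -2.38 to 0.08. Free RNA could make up as much as 19.0% and 31.5% of the UMIs of this class, more than in any other class compared.

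The interferon gamma ratio was larger in lymphatic than in blood endothelium. Lymphatic endothelial nuclei (49 in HF-PBS, 200 in HF-HHT) had an interferon gamma sum of 152 CPM (40 UMIs) and 1393 CPM (540 UMIs), a log2 ratio of 3.19 (2.73 to 3.70), with 8 of 8 members at least 1.5-fold higher (background 23.4%). Blood endothelial nuclei (51 and 205) had 329 CPM (62 UMIs) and 623 CPM (383 UMIs), 0.92 (0.53 to 1.34), with 5 of 7 measured members higher (background 22.6%). The intervals of these ratios do not overlap. Over the whole list, 7 of 23 measured members were at least 1.5-fold higher in blood endothelium and 1 was lower (backgrounds 22.6% and 15.4%). For lymphatic endothelium 19 of 21 were higher and none lower (backgrounds 23.4% and 12.5%). In lymphatic endothelium Iigp1 had 53 UMIs in HF-PBS (202 CPM) against 542 in HF-HHT (1399 CPM), and Gbp4 stood at 49.5 and 421 CPM. In blood endothelium Herc6 (265 and 190 CPM), Stat2 (106 and 76.5 CPM) and Rnf213 (260 and 192 CPM) had intervals that included no difference, and these 3 were named after their values were seen.

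T and NK cells, a known source of interferon gamma, had the smallest interferon gamma ratio of the classes with over 100 nuclei in each library. Their sum was 301 and 704 CPM, a log2 ratio of 1.23 (1.05 to 1.41), and 14 of 28 measured members were at least 1.5-fold higher (background 21.1%) and none was lower (background 8.02%). Gbp2 differed most, from 12.9 CPM (18 UMIs) to 76.2 CPM (77 UMIs). Free RNA, in which Gbp2 stood at 19.4 and 244 CPM, could make up as much as 18.9% and 15.1% of the UMIs of this class. Irf1 was counted at 64.7 and 180 CPM, Gbp4 at 69.0 and 162 CPM, and Usp18 at 7.19 and 30.7 CPM. The type I sum was 69.8 and 95 CPM, with an interval from 0.02 to 0.87. Herc6, Stat2, Ifih1, Eif2ak2 and Parp9 had log2 ratios between -0.26 and 0.05. The difference between type I and interferon gamma ratios was -0.82 (-1.36 to -0.29) in T cells (471 and 321 nuclei) and -0.56 (-1.52 to 0.42) in NK cells (194 and 219 nuclei). In T cells 15 of 27 measured members were at least 1.5-fold higher and none lower, with backgrounds of 20.6% and 9.36%, and in NK cells 9 of 17 and none, with backgrounds of 19.5% and 13%.

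In monocytes and dendritic cells the ratios of both sets were close, with a wide interval for their difference. Their type I sum was 53.8 CPM (29 UMIs) and 311 CPM (108 UMIs), 5.78-fold, and their interferon gamma sum 210 and 1085 CPM, 5.18-fold, with a difference of log2 ratios of 0.16 (-0.53 to 0.88). Oas2 contributed 7 and 26 UMIs and Oasl2 16 and 38, so the type I side rests on few counts. Here 23 of 24 measured members were at least 1.5-fold higher, against 19.2% of all genes. Ddx58 was counted at 16.7 and 86.3 CPM. Clec9a and Flt3, markers of dendritic cells, led this cluster.

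Dividing cells, in which 12 macrophage markers summed to 4374 and 4081 CPM, showed the largest interferon gamma ratio, 54.5 and 797 CPM or 14.6-fold, with 28 of 29 measured members higher (background 19.4%) and none lower (background 9.36%). Gbp2 was counted at 1.80 CPM (4 UMIs) and 123 CPM (189 UMIs), and Gbp4 had no UMI in HF-PBS against 171 in HF-HHT, at least 82.2-fold against the floor of 3 UMIs. Iigp1 stood at 9.46 and 473 CPM. In B cells only 48 nuclei remained in HF-HHT, and 15 of 19 measured members were higher, against 29.9% of all genes. Irf1 was counted at 37.5 CPM (53 UMIs) and 175 CPM (16 UMIs). Markers of plasmacytoid dendritic cells, which are strong makers of type I interferon, summed to 906 CPM in HF-PBS against 4916 CPM in HF-HHT in the B cell class, so the nuclei compared there were not alike.

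The ligands themselves were almost absent. Of 19 interferon genes looked for, Ifng alone was measured in a class, with 5 UMIs in HF-PBS against 15 in HF-HHT among T and NK cells (3.60 and 14.8 CPM), a log2 ratio of 2.05 (0.51 to 3.86). No UMI of Ifnb1 or of an Ifna gene was counted in the classes compared. A difference in other interferon genes was not detectable at this depth.

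Receptor and kinase genes differed in both directions. The chains of the interferon gamma receptor stood at 87.2 and 149 CPM (Ifngr1) and 77.2 and 126 CPM (Ifngr2) in macrophages, while in adipocytes Ifngr1 was lower in HF-HHT, at 358 and 224 CPM, a log2 ratio of -0.67 (-0.80 to -0.55). In APCs it was lower as well, at 137 and 83.0 CPM. Ifnar2 was 2.07-fold higher in adipocytes (35.8 and 73.9 CPM), and Ifnar1 stood at 28.1 and 25.4 CPM. Jak1 was lower in adipocytes (299 and 191 CPM), and Jak2 was counted at 86.5 and 177 CPM in macrophages.

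**Figure D5:**
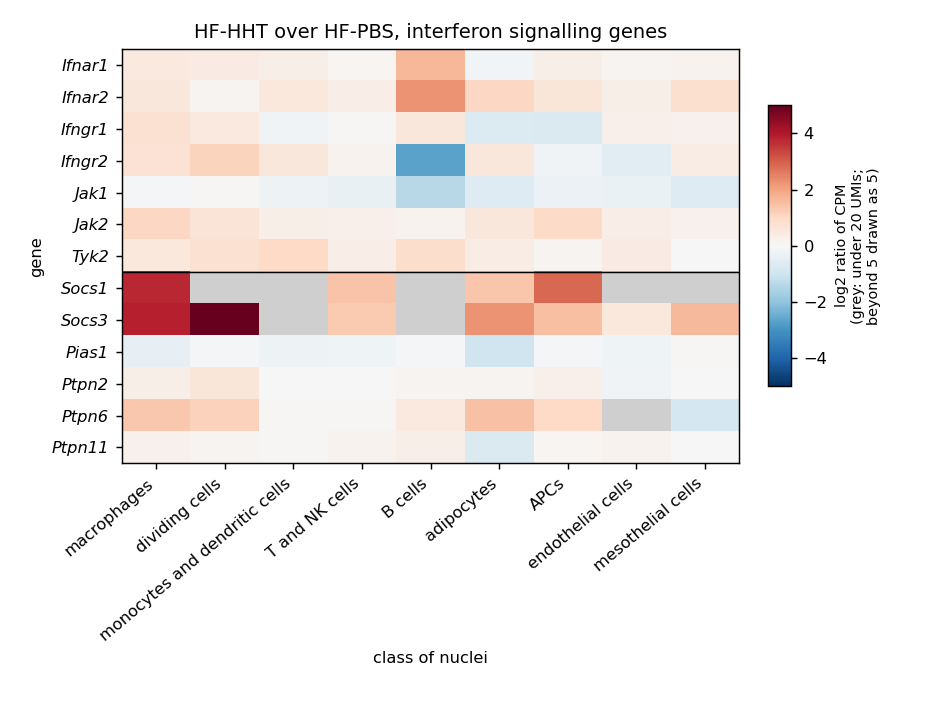
Heat map of log2 ratios of CPM, HF-HHT over HF-PBS, for interferon receptors and kinases (above the line) and for inhibitors (below), in 9 classes of nuclei. Colours are as in the heat map of members. Socs3 is dark red in macrophages, from 1.82 to 27.1 CPM, and most receptor rows are paler there.

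Some feedback inhibitors and, in macrophages, adipocytes and APCs, most other target genes were higher as well. Socs1, the main brake on interferon gamma signalling, had 15 and 101 UMIs in macrophages (0.701 and 9.44 CPM) and none and 40 in adipocytes. Socs3 was counted at 1.82 and 27.1 CPM in macrophages. Pias1 was lower in adipocytes, at 434 and 215 CPM. Of 64 further interferon-induced genes with a row, 50 of 57 measured were at least 1.5-fold higher in macrophages (background 26.1%), 40 of 51 in adipocytes (background 35.8%) and 37 of 52 in APCs (background 23.1%), and 2 were lower in adipocytes (background 12.2%). In T and NK cells 19 of 51 were higher (background 21.1%) and 3 lower (background 8.02%), and in B cells 14 of 33 were higher (background 29.9%) and 6 lower (background 20%). Like the members, this list was chosen with earlier results of these data known. The T cell attractant Cxcl10 went from 1.92 to 78.3 CPM in macrophages, from 0.511 CPM (1 UMI) to 15.6 CPM (156 UMIs) in adipocytes and from 1.19 to 46.4 CPM in APCs. Cxcl9 stood at 0.511 CPM (1 UMI) and 35.8 CPM (357 UMIs) in adipocytes. Gbp10 had no UMI in HF-PBS adipocytes and 316 UMIs in HF-HHT. The lowest ratio of this list in macrophages was that of Ifi207, at 436 and 293 CPM. Of the nucleic acid sensing genes, Zbp1 differed most in macrophages (5.19 and 42.3 CPM) and Tlr7 had the lowest ratio (154 and 116 CPM).

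Free RNA, read in barcodes without nuclei, carried the same difference, with 135 CPM of interferon gamma members in HF-PBS against 957 CPM in HF-HHT, and 98.0 and 171 CPM of type I members. Its part in each class was bounded from markers foreign to the class, at 3.78% to 12.2% of the UMIs in macrophages, adipocytes and APCs of either library. With that share subtracted, no interferon gamma or type I sum of these 3 classes left the interval of its main ratio. The bound was higher in T and NK cells (18.9% in HF-PBS, 15.1% in HF-HHT), B cells (17.8% and 14.5%) and endothelial cells (19.0% and 31.5%). For these classes no sums after subtraction are given, so their ratios carry this limit. In the bulk of a class, fewer cells with the program and less RNA per cell give the same sum.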

How the data were processed

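Nuclei from frozen epididymal WAT were sorted with DAPI and sequenced with a 10x 3′ kit in 2 libraries of 3 pooled mice. The deposited files hold UMI counts per gene and barcode that the authors made with Cell Ranger 5.0.0 on mm10, and the sources used here do not state whether intronic reads were included. The libraries hold 76197757 (HF-PBS) and 73313558 (HF-HHT) UMIs. Nuclei were called again from all barcodes by the rules of Cell Ranger (3000 expected nuclei, at least 500 UMIs, 10000 simulations, false discovery rate of 0.01, free RNA from the barcodes ranked 45000 to 90000). Doublets were removed at 0.8% per 1000 nuclei, and nuclei were kept with over 400 genes, below the 95th percentile of UMIs and genes, and below 0.5% mitochondrial UMIs. The libraries shared 13 barcodes among kept nuclei.

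Nuclei were clustered with Seurat 5.3.0 at resolution 0.15 (14 clusters) and, for macrophage, endothelial and lymphoid states, at 1.0, with the members and the wider interferon lists left out of the clustering genes. Clusters were named from marker lists. Naming each nucleus by likelihood gave the same class for 97.7%. The profiles for this came from the same nuclei and clusters, so the share does not test the marker names. The members and lists were chosen with earlier results of these data known.

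Counts were summed by class and library and divided by the total UMIs of the class (CPM). Ratios have exact 95% binomial intervals that cover counting error only, and a 0 was set to a floor of 3 UMIs per library. Classes with under 30 nuclei in a library were not compared. Erythroid cells (52 nuclei in HF-PBS, 235 in HF-HHT) passed this limit but were left out of the comparison too. Free RNA could make up as much as 48.4% and 25.2% of the UMIs of erythroid cells. A pool is 1 sample, so no test across conditions was made. edgeR 4.0.16 (TMM) and DESeq2 1.42.0 (size factors) under R 4.3.3 served as other scalings only, and Python 3.11.15 with numpy 2.4.6, scipy 1.17.1, pandas 2.3.3 and scanpy 1.11.5 did the rest. The ratios and intervals were tested on simulated data with independently drawn counts, so clumping of UMIs in single nuclei was not part of that test. Named genes were all type I and interferon gamma members in macrophages and, in other classes, at most 12 members with at least 20 UMIs, a 1.5-fold ratio and an interval without 1-fold, with the extremes of the wider lists and the receptors and kinases; other names serve to account for members that missed these limits, and 1 gene that this rule names is not reported here. Positions of genes are from GENCODE on GRCm38, which held 99.6% of the gene identifiers, and promoter windows from RefSeq.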

Additional observations from a re-analysis of the deposited data

Results flagged for a closer look

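Signal was present in cell types that occurred in HF-HHT alone and therefore entered no comparison. In duct epithelium the 8 interferon gamma members summed to 138 CPM (418 UMIs), and in multiciliated epithelium to 99.4 CPM (77 UMIs). Both sums lay below those of every compared class of HF-HHT, the lowest of which was 423 CPM in adipocytes. Free RNA could make up at most 6.09% and 4.39% of the UMIs of these epithelia, and its part in the sums was not tested.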

How the results depend on the processing

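For the summed groups of adipocytes, APCs and macrophages, 75 values under other settings lay within counting error of the reported ones and 36 did not, and none changed direction. Among counts of members, 58 stayed within 1.5 times and 2 did not: with TMM or median-of-ratios factors, 1 adipocyte member was at least 1.5-fold lower, against 0.

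With TMM factors the interferon gamma log2 ratio was 3.25 in macrophages and 2.14 in APCs and the macrophage type I ratio 0.96. Median-of-ratios factors gave 3.24 and 2.12 for interferon gamma, and 0.95 and 1.02 for type I in macrophages and APCs. Without upper limits on UMIs, macrophages gave 3.60 and 1.31, and adipocytes 3.40 for interferon gamma and -2.07 for the difference between type I and interferon gamma. Clusters at resolution 1.0 gave 3.53 for interferon gamma in macrophages. Without the member of the most UMIs in each group, interferon gamma was 3.64 in macrophages and 3.12 in adipocytes, and type I 1.36 in macrophages and 1.59 in APCs. Wider groups gave 3.74, 3.19 and 2.62 for interferon gamma in macrophages, adipocytes and APCs, 1.04 for type I in macrophages, and differences of -2.70 in macrophages and -1.52 in APCs. Medians of members in macrophages were 2.92, 1.59 and -1.34 for interferon gamma, type I and the difference. The cause of these shifts was not tested.

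Values within macrophage states were chosen after seeing the data. Interferon gamma was 2.61, 3.03, 2.75 and 2.84 in lipid-associated, monocyte-like, resident and other macrophages, and the differences were -1.78, -1.84, -1.92 and -1.83. Type I was 0.83 in lipid-associated, 0.83 in resident and 1.01 in other macrophages. Of single members, 2 turned direction: Ifit2 in adipocytes without upper limits (-0.14) and Igtp in endothelial cells with free RNA subtracted (-0.52).

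No paired analysis was possible because each condition is 1 library, and with 1 library per condition none was left out. Precision is limited where a class has few nuclei in a library, such as the 48 B cells of HF-HHT and the 100 endothelial nuclei of HF-PBS.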
